A study of Mus musculus with 6 samples.

Results

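The 10 genes described here mark macrophages or encode complement C1q: *Csf1r*, *Cx3cr1*, *Adgre1*, *Aif1*, *Cd68*, *Mrc1*, *C1qa*, *C1qb*, *C1qc* and *Trem2*. They were chosen by name, as genes of resident cochlear macrophages, and the counts and FPKM of all transcripts that carry each symbol were summed in every sample. All 10 were found among the 51802 gene symbols listed, and all 10 were among the 17136 genes that passed the filter on low counts.

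Bulk RNA from the cochlea was sequenced in 3 wildtype samples and 3 *Pou4f3(Δ/+)* samples, all from mice 2 months old on the C57/BL6J background, with the wildtype animals described as littermates. *Pou4f3(Δ/+)* mice were heterozygous for a germline knock-in allele of *Pou4f3*, a hair cell transcription factor. The allele carries a small deletion and a C-to-T change that makes an early stop codon, as a model of the dominant human deafness DFNA15, and it is present in all cells rather than in hair cells only. No treatment is named for either group, the sex of the mice is not given, and the comparison asks which genes differ between the genotypes early in the progressive hearing loss of the mutant. The sources do not say whether a sample was 1 animal or a pool, and the p-values therefore measure the spread between these samples only.

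Macrophages settle in the cochlea in the lateral wall, along the spiral ganglion and below the sensory epithelium, and they take up debris when hair cells are damaged. They depend on the receptor Csf1r, which binds the growth factors Csf1 and interleukin 34, and many of them carry Cx3cr1, the receptor of the chemokine fractalkine. They are also the main makers of C1q, a protein built of A, B and C chains that opens the classical complement pathway by binding the proteases C1r and C1s and so leads to the cleavage of C4, C2 and C3.

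The libraries held between 14295069 and 17696784 summed counts. Transcripts of marrow cells were very abundant in both groups, with the neutrophil gene *S100a9* between 5017 and 6372 FPKM. *Ocm* and *Pvalb*, taken from a list of hair cell markers, lay between 22.58 and 28.78 FPKM and between 91.66 and 116.35 FPKM, and the cells they came from were not resolved. *Pou4f3(Δ/+)* replicates 1 and 2 stood apart in 9 B cell genes, whose summed FPKM was 301.5 and 340.1 against 181.6 in replicate 3 and 148.6 to 175.3 in wildtype. Wildtype replicate 5 stood apart in the complement factor *Cfb*, at 25.06 FPKM against 2.36 to 3.50 in the other samples. *Pou4f3* itself differed by a log2 fold change of -0.06 (SE 0.27), and since both alleles are transcribed from 1 symbol this value does not check the genotype labels. Values of single samples are listed throughout by replicate number, first 3, 4 and 5 for wildtype and then 1, 2 and 3 for the *Pou4f3(Δ/+)* mutants. In a tissue extract, fewer cells of a type and less RNA per cell cannot be told apart.

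The 3 chains of C1q are encoded side by side, and the sequences just upstream of *C1qb* and *C1qc* are shown because the chains varied together from sample to sample, as described below, while *Trem2* is shown as the member that varied most. The letters come from the RefSeq promoter table of build GRCm38.p6, which held 7 of the 10 genes and not *Csf1r*, *Adgre1* or *C1qa*, and each is read 5′ to 3′ on the strand of its gene. Capitals mark GGAAGT or GAGGAA on either strand (ACTTCC and TTCCTC when read from the other strand), which are letters of the purine-rich type bound by the myeloid factor PU.1. The *C1qb* stretch lies on the minus strand at chr4:136886201-136886450, the *C1qc* stretch on the minus strand at chr4:136893066-136893164, where it stops short of the first annotated exon, and the *Trem2* stretch on the plus strand at chr17:48346151-48346400.
C1qb: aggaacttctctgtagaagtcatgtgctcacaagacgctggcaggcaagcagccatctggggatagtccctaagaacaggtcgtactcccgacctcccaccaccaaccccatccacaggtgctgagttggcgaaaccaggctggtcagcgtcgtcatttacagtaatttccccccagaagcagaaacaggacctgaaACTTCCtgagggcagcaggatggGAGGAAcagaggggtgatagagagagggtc
C1qc: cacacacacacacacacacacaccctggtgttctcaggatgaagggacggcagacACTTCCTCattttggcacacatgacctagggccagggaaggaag
Trem2: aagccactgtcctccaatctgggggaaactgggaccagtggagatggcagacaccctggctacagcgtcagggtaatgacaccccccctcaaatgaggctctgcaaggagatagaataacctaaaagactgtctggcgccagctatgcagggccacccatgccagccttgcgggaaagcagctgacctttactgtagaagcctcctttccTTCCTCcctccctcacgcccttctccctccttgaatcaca
At least 1 of the 2 strings was present in the 250 bases before the RefSeq start of 6 of the 7 genes (*Mrc1*, *C1qb*, *C1qc*, *Cd68*, *Aif1* and *Trem2*), against 36.7% of all 32851 promoters in the table, and in *Cx3cr1* neither was found in this window. The *Aif1* match, whose first base lies 7 bases before the RefSeq start, falls inside the gene as annotated in GENCODE M21. The whole *Cx3cr1* window does so too, and neither result describes sequence upstream of the annotated gene. The overlapping form GAGGAAGT was present in *C1qc* alone, where its first base lies 195 bases before the RefSeq start, and in 2.44% of all promoters. A match is a description of the letters, and binding was not measured. The transcript of PU.1 itself, *Spi1*, was read at 69.66, 62.81 and 67.93 FPKM among the wildtype samples, against 63.59, 78.96 and 62.47 FPKM among the mutants, and the groups overlapped.

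Every member was detected in all 6 samples, between 7.02 and 135.5 FPKM. FPKM is a level per length of transcript, so it can be compared between genes. The mean over the 6 samples was highest for *C1qa* (104.1 FPKM), followed by *C1qb* (91.94), *Cd68* (83.39), *C1qc* (71.25) and *Csf1r* (53.34). Below them came *Mrc1* (23.68), *Adgre1* (14.77), *Trem2* (12.27), *Cx3cr1* (10.74) and *Aif1* (7.97), so that the highest mean was 13.1 times the lowest. The ranges of *Csf1r* and *Mrc1* did not overlap, nor did those of *Mrc1* and *Adgre1*, and all other neighbours in this order had overlapping ranges. Within a sample *C1qa* was above *C1qb*, and *C1qc* above *Csf1r*, in 6 of 6 samples, whereas *C1qb* was above *Cd68* in 3 of 6.

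**Figure D1:**
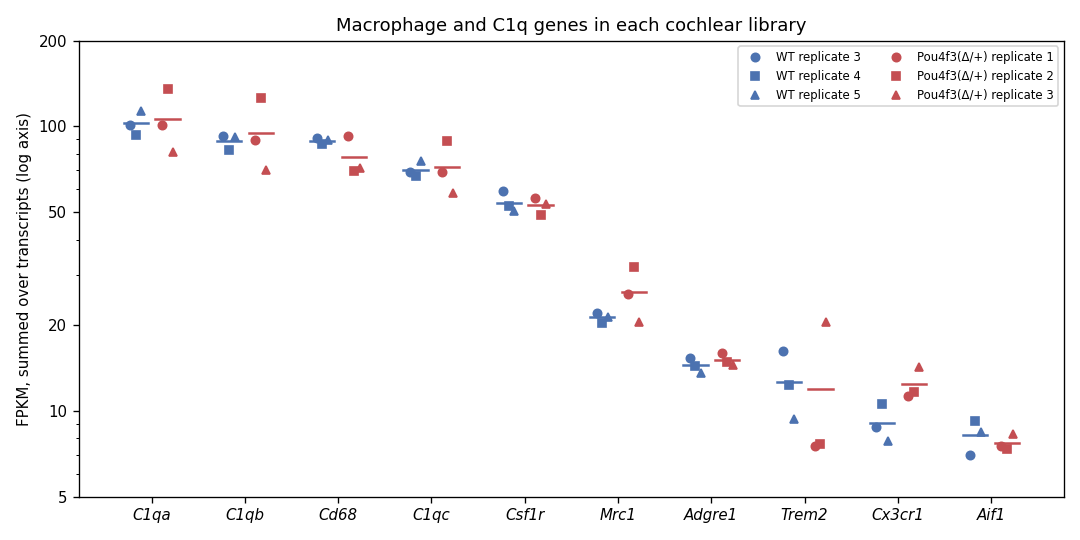
FPKM of each of the 10 genes (log axis) in the 3 wildtype samples (blue) and the 3 *Pou4f3(Δ/+)* samples (red), with 1 symbol per replicate and a line at the group mean. *Cx3cr1* is the gene whose red points (11.26 to 14.28) all lie above the blue points (7.85 to 10.61), and *Trem2* has the widest scatter within both groups.

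The first question was whether the receptors that macrophages depend on differed between the genotypes. *Csf1r* (ENSMUSG00000024621, chromosome 18, 61100598 to 61132149, plus strand; this and the positions below are those of GENCODE M21 on GRCm38) was read at 59.01, 52.32 and 50.45 FPKM among the wildtype samples, against 56.01, 48.85 and 53.39 FPKM among the mutants. The highest value belonged to a wildtype and the lowest to a mutant sample, and the groups overlapped. Its log2 fold change (*Pou4f3(Δ/+)* over wildtype) was -0.03 (SE 0.09, 95% interval -0.23 to 0.16, edgeR quasi-likelihood adjusted p = 0.936), so fold changes above 1.12 or below 0.854 lay outside the interval. Of the 3342.8 counts it had on average, few came from a second transcript (ENSMUST00000115268, 1.69% of the FPKM) that shares 873 exonic bases with *Hmgxb3* on the opposite strand, and the strand setting of the counting is not given in the sources used here.

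*Cx3cr1* (ENSMUSG00000052336, chromosome 9, 119901616 to 120069879, minus strand) was the member with the clearest difference in level. It was read at 8.77, 10.61 and 7.85 FPKM among the wildtype samples, against 11.26, 11.68 and 14.28 FPKM among the mutants. Each mutant sample was above each wildtype sample, by a narrow gap between wildtype replicate 4 and *Pou4f3(Δ/+)* replicate 1. The counts behind these values were 514, 513 and 459 against 677, 629 and 726. The log2 fold change was 0.47 (SE 0.13, 95% interval 0.17 to 0.77), a 1.39-fold higher level, with an unadjusted p of 0.00598 and an adjusted p of 0.643 in edgeR, so it did not pass the test across all genes. DESeq2 did not call it either (adjusted p = 0.216), and over 14 alternative settings the log2 fold change stayed between 0.37 and 0.67 with adjusted p between 0.189 and 0.963. Without *Pou4f3(Δ/+)* replicates 1 and 2, in which the B cell genes were high, the value was 0.67, and without *Pou4f3(Δ/+)* replicate 3 it was 0.37. Relative to *Csf1r* in the same sample, *Cx3cr1* was 0.149, 0.203 and 0.156 in wildtype and 0.201, 0.239 and 0.267 in *Pou4f3(Δ/+)*, and on this scale the groups overlapped.

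The third receptor, *Trem2* (ENSMUSG00000023992, chromosome 17, 48346401 to 48354147, plus strand), senses lipids and lipoproteins and signals through Tyrobp. It was read at 16.25, 12.33 and 9.34 FPKM among the wildtype samples, against 7.55, 7.65 and 20.48 FPKM among the mutants. The highest and the lowest of all 6 values both belonged to the mutant group, and the spread within each group exceeded the difference between them. The log2 fold change of -0.17 (SE 0.34, 95% interval -0.95 to 0.61, edgeR adjusted p = 0.910) was the least precise of the members, and without *Pou4f3(Δ/+)* replicate 3 the value was -0.64, without wildtype replicate 5 -0.41 and without *Pou4f3(Δ/+)* replicates 1 and 2 0.48. The coefficient of variation of *Trem2* over the 6 samples was 42.4%, against 6.96% for *Csf1r* and 21.2% for *Cx3cr1*. A C-type lectin of phagocytes, *Clec7a*, was chosen after its values were seen, since it was high and low in the same mutant samples: it was read at 27.60, 25.86 and 21.03 FPKM in wildtype and at 11.05, 12.31 and 39.09 FPKM in *Pou4f3(Δ/+)*. Its log2 fold change was -0.24 (SE 0.39) and depended on the samples taken, at 0.08 without *Pou4f3(Δ/+)* replicate 1, -0.02 without replicate 2, -0.98 without replicate 3 (edgeR adjusted p = 0.0284) and 0.63 without replicates 1 and 2 (edgeR adjusted p = 0.823).

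Among the remaining markers, *Adgre1* (ENSMUSG00000004730, chromosome 17, 57358691 to 57483527, plus strand), which encodes the macrophage surface protein F4/80, was the steadiest. It was read at 15.38, 14.37 and 13.59 FPKM among the wildtype samples, against 15.97, 14.82 and 14.51 FPKM among the mutants. The groups overlapped, and the log2 fold change was 0.06 (SE 0.09, 95% interval -0.13 to 0.26, edgeR adjusted p = 0.861). With 1 sample left out it ran from 0.021 (without *Pou4f3(Δ/+)* replicate 1) to 0.116 (without wildtype replicate 3). Its ratio to *Csf1r* stayed between 0.261 and 0.303, with a coefficient of variation of 5.39%.

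*Aif1* (ENSMUSG00000024397, chromosome 17, 35170991 to 35176068, minus strand) encodes Iba1, the calcium-binding protein most used to stain macrophages and microglia. It had the lowest level of the members, at 7.02, 9.18 and 8.44 FPKM in wildtype and 7.52, 7.36 and 8.28 FPKM in *Pou4f3(Δ/+)*, and only 96 to 122 counts per library. The mutant values lay inside the wildtype range, with a log2 fold change of -0.10 (SE 0.17, 95% interval -0.49 to 0.28, edgeR adjusted p = 0.889).

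*Cd68* (ENSMUSG00000018774, chromosome 11, 69664213 to 69666153, minus strand), a glycoprotein of lysosomes and endosomes, was read at 91.19, 86.33 and 89.47 FPKM in wildtype and at 92.16, 69.86 and 71.30 FPKM in *Pou4f3(Δ/+)*. The wildtype samples were close together, and *Pou4f3(Δ/+)* replicates 2 and 3 lay below all of them while replicate 1 had the highest summed FPKM of the 6. With the protein-coding transcripts only, wildtype replicate 3 was the highest (89.77 against 88.35 FPKM in *Pou4f3(Δ/+)* replicate 1), as it was in log2 CPM. The log2 fold change was -0.20 (SE 0.10, 95% interval -0.44 to 0.03, edgeR unadjusted p = 0.0830, adjusted p = 0.656). It was -0.33 without *Pou4f3(Δ/+)* replicate 1 and -0.14 without replicate 3.

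*Mrc1* (ENSMUSG00000026712, chromosome 2, 14229392 to 14332057, plus strand), the mannose receptor of tissue and perivascular macrophages, was read at 22.06, 20.41 and 21.45 FPKM in wildtype and at 25.73, 31.96 and 20.49 FPKM in *Pou4f3(Δ/+)*. The first and the second mutant sample were above every wildtype sample, and in FPKM summed over all transcripts the third lay among them. In log2 CPM the third was the lowest sample. With the protein-coding transcripts only, it was also below every wildtype sample (18.35 against 19.03 to 20.1 FPKM). The log2 fold change was 0.28 (SE 0.15, 95% interval -0.05 to 0.61, edgeR unadjusted p = 0.0897, adjusted p = 0.660). It was 0.11 without *Pou4f3(Δ/+)* replicate 2, 0.44 without replicate 3 and -0.10 when replicates 1 and 2 were left out, the samples with high B cell genes, and the part of that difference between libraries in the *Mrc1* value was not tested.

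The C1q chains were among the 4 most abundant members, and their ranges overlapped between the genotypes. *C1qb* (ENSMUSG00000036905, 136880129 to 136886187), *C1qc* (ENSMUSG00000036896, 136889804 to 136893065) and *C1qa* (ENSMUSG00000036887, 136895917 to 136898803) lie on the minus strand of chromosome 4 within 18675 bases. *C1qa* was read at 101.1, 93.03 and 112.81 FPKM among the wildtype samples, against 101.22, 135.46 and 81.17 FPKM among the mutants. *C1qb* was read at 92.17, 82.75 and 91.78 FPKM in wildtype and at 89.23, 125.45 and 70.26 FPKM in *Pou4f3(Δ/+)*, and *C1qc* at 69.01, 66.83 and 75.58 FPKM and at 69.10, 88.55 and 58.45 FPKM. *Pou4f3(Δ/+)* replicate 2 had the highest and *Pou4f3(Δ/+)* replicate 3 the lowest value of all 6 samples in each of the 3 genes, with the wildtype samples between them. The log2 fold changes were 0.05 (SE 0.18) for *C1qa*, 0.10 (SE 0.19) for *C1qb* and 0.03 (SE 0.15) for *C1qc*, with edgeR adjusted p of 0.954, 0.908 and 0.964. The 95% intervals ran from -0.35 to 0.45, from -0.33 to 0.52 and from -0.30 to 0.37. Each turned negative when *Pou4f3(Δ/+)* replicate 2 was left out, at -0.18, -0.17 and -0.15 for *C1qa*, *C1qb* and *C1qc*. Without wildtype replicate 4, *C1qa* (-0.014) and *C1qc* (-0.005) were also just below 0, and *C1qb* was 0.05.

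The chains kept nearly the same proportions in every sample. *C1qb* over *C1qa* was between 0.814 and 0.926 (coefficient of variation 4.49%, n = 6), and *C1qc* over *C1qa* was between 0.654 and 0.720 (3.85%). The chains themselves varied by 17.8% (*C1qa*), 19.97% (*C1qb*) and 14.2% (*C1qc*). The summed C1q level was 262.3, 242.6 and 280.2 FPKM in wildtype and 259.6, 349.5 and 209.9 FPKM in *Pou4f3(Δ/+)*, which is 261.7 ± 18.8 and 273.0 ± 70.8 FPKM (SD, n = 3 each). Against *Csf1r* in the same sample this sum was 4.44, 4.64 and 5.55 in wildtype and 4.63, 7.15 and 3.93 in *Pou4f3(Δ/+)*, so that the amount of C1q transcript per *Csf1r* transcript differed 1.82-fold between samples and the groups overlapped. *Mrc1* was also highest in *Pou4f3(Δ/+)* replicate 2, while *Cx3cr1* and *Trem2* were highest in *Pou4f3(Δ/+)* replicate 3, where the C1q chains were lowest.

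**Figure D2:**
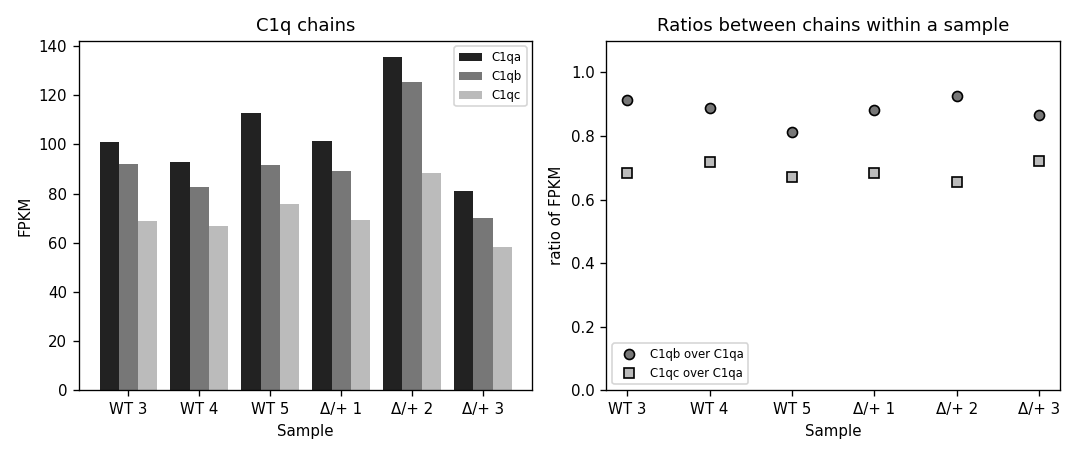
Left, FPKM of the C1q chains in each sample. Right, the ratio of *C1qb* and of *C1qc* to *C1qa* in the same sample. The bars range from 58.45 to 135.46 FPKM, with *Pou4f3(Δ/+)* replicate 2 highest and replicate 3 lowest, while the ratios stay between 0.814 and 0.926 and between 0.654 and 0.720.

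Of the 10 genes, none passed an adjusted p of 0.05 in edgeR, and the same held for all 17136 genes tested (0%), where 1309 (7.64%) had an unadjusted p under 0.05 (3.50% higher and 4.14% lower in *Pou4f3(Δ/+)*) and the smallest adjusted p was 0.223. DESeq2 called 62 of 18913 genes (0.328%) and none of the members. *Cx3cr1* was the 1 member with an unadjusted p under 0.05 and the 1 member whose groups did not overlap in log2 CPM, against 12.7% of all genes without overlap (6.07% higher and 6.59% lower in *Pou4f3(Δ/+)*). The fold change was above 0 for 6 members and below 0 for 4, with a median log2 fold change of 0.04, against a median of -0.003 and 49.4% above 0 among all genes tested. Summed counts of the members made up 0.0788% to 0.0845% of a wildtype library and 0.0754% to 0.0924% of a mutant library. Over the 6 samples the median SD of log2 CPM was 0.235 for the members and 0.176 for all genes tested.

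**Figure D3:**
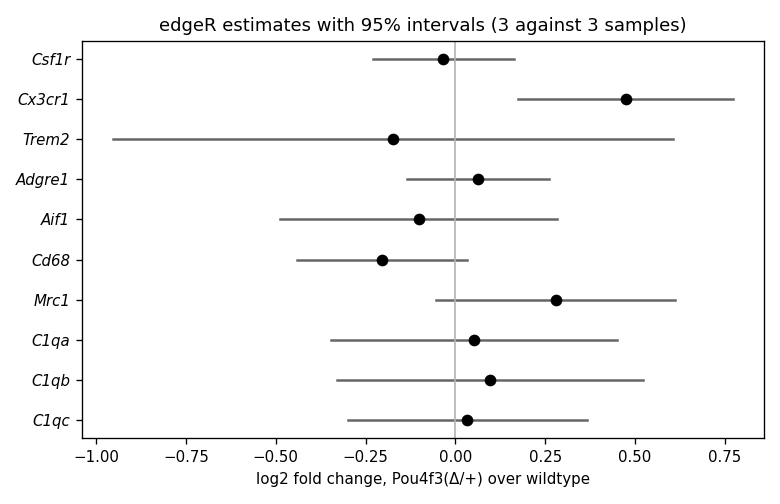
Log2 fold change of each member, *Pou4f3(Δ/+)* over wildtype, from edgeR, with 95% intervals (3 against 3 samples). The interval of *Cx3cr1* (0.17 to 0.77) is the one that does not reach 0, *Csf1r* and *Adgre1* have the narrowest intervals and *Trem2* the widest (-0.95 to 0.61).

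**Figure D4:**
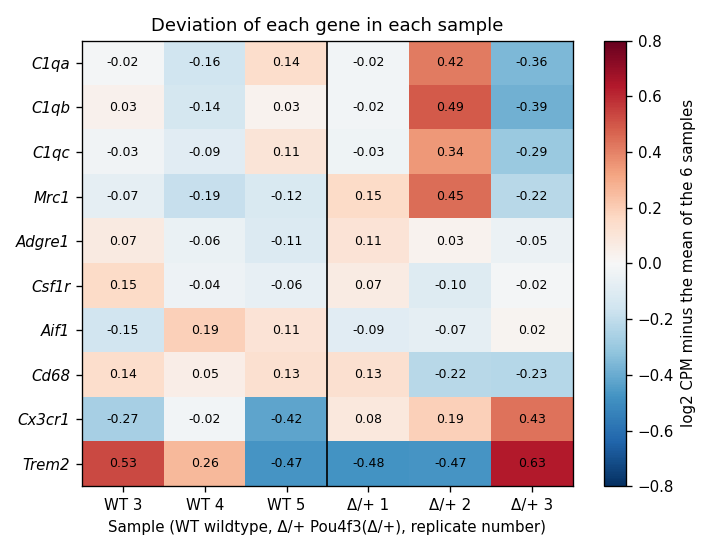
Log2 CPM of each member in each sample minus the mean of the gene over the 6 samples, with red above and blue below the mean. The C1q chains and *Mrc1* share their high sample, *Pou4f3(Δ/+)* replicate 2 (0.34 to 0.49), *Trem2* runs from -0.48 to 0.63, and *Csf1r* and *Adgre1* stay between -0.11 and 0.15.

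The deposited values are per transcript, so it was asked next whether a gene total hid a shift between transcripts. Of the 27 transcripts listed for the members, 18 passed the filter. None of them passed an adjusted p of 0.05 in edgeR (0% of 38347 transcripts), and 1 had an unadjusted p under 0.05 (4.14% of all transcripts tested, 1.95% higher and 2.19% lower in *Pou4f3(Δ/+)*) and was also the 1 whose groups did not overlap (10.7%, 5.28% higher and 5.45% lower). This was ENSMUST00000064165 of *Cx3cr1*, read at 2.85, 3.61 and 2.26 FPKM in wildtype and at 3.91, 5.10 and 5.87 FPKM in *Pou4f3(Δ/+)*. Its log2 fold change was 0.77 (SE 0.23, unadjusted p = 0.0152, adjusted p = 0.999). The other main *Cx3cr1* transcript, ENSMUST00000177637, with 59.7% of the FPKM of the gene, was read at 5.63, 6.82 and 5.15 FPKM in wildtype and at 7.06, 6.09 and 7.72 FPKM in *Pou4f3(Δ/+)*, with overlap and a log2 fold change of 0.24 (SE 0.15). Both are annotated as protein coding, and the difference between their fold changes was not tested.

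*Trem2* was the member whose reads were most divided. The protein-coding ENSMUST00000024791 held 50.3% of its FPKM on average, the processed transcript ENSMUST00000148545 28.2% and the protein-coding ENSMUST00000113237 14.2%. Transcripts that are not annotated as protein coding made up 22.2%, 25.9% and 55.2% of *Trem2* FPKM in wildtype and 27.5%, 26.5% and 48.9% in *Pou4f3(Δ/+)*, and were highest in wildtype replicate 5 and *Pou4f3(Δ/+)* replicate 3. ENSMUST00000148545 alone was read at 8.79 FPKM in *Pou4f3(Δ/+)* replicate 3, against 1.42 to 4.55 FPKM in the other samples. These values rest on few estimated counts, 67.81 in that sample and 11.61 to 41.12 in the others. The log2 fold change of this transcript was 0.32 (SE 0.81). With the protein-coding transcripts only, *Trem2* was 12.64, 9.14 and 4.18 FPKM in wildtype and 5.47, 5.62 and 10.47 FPKM in *Pou4f3(Δ/+)*, and the highest sample became wildtype replicate 3. In the other members, transcripts that are not protein coding took at most 11.5% of the FPKM in a sample (*Mrc1*). In *Csf1r*, *Aif1*, *Cd68*, *Mrc1*, *C1qc* and *Adgre1* 1 transcript held 89.6% or more of the FPKM in the mean over the 6 samples, and *C1qa* and *C1qb* had 1 transcript each.

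**Figure D5:**
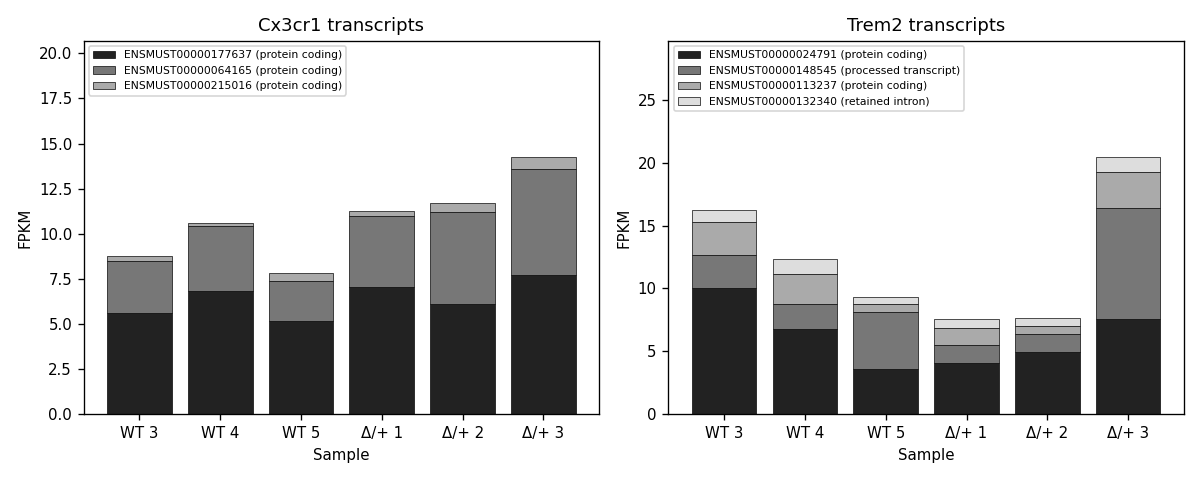
FPKM of each transcript of *Cx3cr1* (left) and *Trem2* (right), stacked for each sample, with the annotated type of the transcript. ENSMUST00000064165 of *Cx3cr1* is higher in each mutant sample (3.91 to 5.87 FPKM) than in each wildtype sample (2.26 to 3.61 FPKM), and the high *Trem2* bar of *Pou4f3(Δ/+)* replicate 3 (20.48 FPKM) holds 8.79 FPKM of the processed transcript.

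The ligands and signalling partners of these receptors were compared in a list of 12 genes, all tested. None passed the adjusted test, and 3 of 12 (25%, against 7.64% of all genes tested) had an unadjusted p under 0.05, 2 higher and 1 lower in *Pou4f3(Δ/+)*. *Syk*, the kinase downstream of Tyrobp, was read at 46.80, 45.80 and 42.93 FPKM in wildtype and at 59.61, 66.83 and 46.95 FPKM in *Pou4f3(Δ/+)*, just without overlap (log2 fold change 0.37, SE 0.13, edgeR adjusted p = 0.643). The value was 0.23 without *Pou4f3(Δ/+)* replicate 2, 0.04 without replicates 1 and 2, and 0.51 without replicate 3 (edgeR adjusted p = 0.0417). *Syk* is also used by B cells, whose genes were high in the same mutant samples, and their part in its value was not tested. *Irf8*, a transcription factor of monocytes and macrophages, had a log2 fold change of 0.29 (SE 0.12), and *Grn*, which encodes the lysosomal protein progranulin, of -0.29 (SE 0.10), both with overlap. *Irf8* was 0.14 without *Pou4f3(Δ/+)* replicate 2, and *Grn* was -0.17 without replicates 1 and 2. The ligands gave no difference beyond the spread: the log2 fold change was -0.21 (SE 0.13) for *Csf1*, 0.07 (SE 0.15) for *Il34* and -0.23 (SE 0.14) for *Cx3cl1*, which encodes fractalkine. *Tyrobp*, the adaptor of Trem2, was read at 184.0 to 244.8 FPKM in wildtype and 190.8 to 227.5 FPKM in *Pou4f3(Δ/+)*, and differed by -0.02 (SE 0.12) on the log2 scale.

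The rest of the complement system was taken from a list of 22 genes, of which 19 passed the filter and *C1rb*, *C1s2* and *Masp2* did not. None of the 19 passed the adjusted test, 8 had a fold change above 0 and 11 below 0, the median log2 fold change was -0.10, and 3 (15.8%, against 7.64% of all genes tested) had an unadjusted p under 0.05. The proteases that bind C1q were far below it in level: *C1ra* had 6.73 to 8.61 FPKM in wildtype and 6.91 to 7.21 in *Pou4f3(Δ/+)* (log2 fold change -0.12, SE 0.12), and *C1s1* had 6.69 to 9.72 and 5.68 to 7.77 FPKM (-0.23, SE 0.18). Of the components that follow, *C4b* differed by -0.10 (SE 0.16), *C2* by -0.27 (SE 0.14) and *C3*, at 84.0 to 102.0 FPKM in wildtype and 87.5 to 98.2 FPKM in *Pou4f3(Δ/+)*, by -0.05 (SE 0.10) on the log2 scale.

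*Cfb*, the protease of the alternative pathway, was read at 3.50, 2.81 and 25.06 FPKM in wildtype and at 2.60, 2.91 and 2.36 FPKM in *Pou4f3(Δ/+)*. Its log2 fold change of -1.78 (SE 0.69, edgeR adjusted p = 0.643) rested on wildtype replicate 5 and was -0.23 without it. Properdin, *Cfp*, which stabilises the alternative convertase, differed by 0.07 (SE 0.16).

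The regulators differed among themselves in sign. *Cd55*, which speeds the decay of the convertases, was read at 19.19, 19.37 and 20.96 FPKM in wildtype and at 30.62, 26.85 and 19.16 FPKM in *Pou4f3(Δ/+)* (log2 fold change 0.39, SE 0.16, edgeR adjusted p = 0.643). It was high in the same mutant samples as the B cell genes. Without *Pou4f3(Δ/+)* replicate 3 it was the 1 complement gene that passed the adjusted test, at 0.58 (adjusted p = 0.0300), and it was 0.23 without replicate 1 and -0.07 without replicates 1 and 2. *Cd59a*, an inhibitor of the membrane attack complex, was read at 23.26, 26.44 and 23.56 FPKM in wildtype and at 20.52, 19.49 and 22.29 FPKM in *Pou4f3(Δ/+)*, each mutant value below each wildtype value (-0.24, SE 0.09, edgeR adjusted p = 0.643, and -0.15 without replicates 1 and 2). *Serping1* and *Cr1l* had log2 fold changes of -0.14 (SE 0.15) and 0.15 (SE 0.09), both with overlap. Receptors of complement fragments gave -0.14 (SE 0.18) for *C3ar1*, 0.14 (SE 0.18) for *C5ar1*, 0.06 (SE 0.08) for *Itgam*, -0.10 (SE 0.20) for *Itgax* and 0.01 (SE 0.09) for *Itgb2*.

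A list of 20 other macrophage genes was read beside the members, with 12 fold changes above 0 and 8 below 0, a median log2 fold change of 0.04 and 4 genes (20%, against 7.64% of all genes tested) with an unadjusted p under 0.05. *Cd163*, the scavenger receptor for haemoglobin bound to haptoglobin, was read at 7.06, 6.84 and 7.42 FPKM in wildtype and at 15.14, 16.55 and 8.76 FPKM in *Pou4f3(Δ/+)*. All mutant values were above all wildtype values, and those of replicates 1 and 2 were far above. Its log2 fold change was 0.93 (SE 0.21, unadjusted p = 0.00170, adjusted p = 0.643) in edgeR, DESeq2 called it (adjusted p = 0.00396), and it was 1.18 without *Pou4f3(Δ/+)* replicate 3 (edgeR adjusted p = 0.00871) and 0.30 without replicates 1 and 2. Relative to *Csf1r* it was 0.120, 0.131 and 0.147 in wildtype and 0.270, 0.339 and 0.164 in *Pou4f3(Δ/+)*, also without overlap. Erythroid genes, whose products *Cd163* clears, were read beside it: *Hbb-bt*, a beta globin, was 951.3, 929.0 and 816.5 FPKM in wildtype and 1315.2, 1321.8 and 1087.9 FPKM in *Pou4f3(Δ/+)*.

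*Lyve1*, a hyaluronan receptor of perivascular macrophages and lymphatic endothelium, was read at 1.72, 1.56 and 1.57 FPKM in wildtype and at 2.19, 3.46 and 2.24 FPKM in *Pou4f3(Δ/+)* (log2 fold change 0.74, SE 0.21, edgeR adjusted p = 0.643). *Mertk*, a receptor for the uptake of dying cells, had a log2 fold change of 0.28 (SE 0.12) with overlap, which was 0.16 without *Pou4f3(Δ/+)* replicate 2 and 0.04 without replicates 1 and 2. *Fcgr1*, the high-affinity receptor for IgG, was read at 9.58, 7.92 and 12.39 FPKM in wildtype and at 5.22, 6.06 and 6.22 FPKM in *Pou4f3(Δ/+)*, each mutant sample below each wildtype sample (-0.76, SE 0.19, unadjusted p = 0.00370, adjusted p = 0.643 in edgeR). Without wildtype replicate 5 the value was -0.49. In this list 2 genes were higher and 2 lower without overlap in log2 CPM (20%, against 12.7% of all genes tested), the second lower one being *Folr2*, chosen after its values were seen, with few counts per library.

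Of 6 genes that are most used to mark microglia, 5 had a fold change above 0, with a median log2 fold change of 0.20, and 2 (33.3%, against 7.64% of all genes tested) had an unadjusted p under 0.05. *Siglech*, a lectin of microglia and plasmacytoid dendritic cells, was read at 8.31, 5.73 and 5.84 FPKM in wildtype and at 9.25, 9.99 and 10.60 FPKM in *Pou4f3(Δ/+)* (0.47, SE 0.16, edgeR adjusted p = 0.643), and *Tmem119*, which bone-forming cells also express, at 13.93, 14.17 and 15.22 FPKM and at 9.55, 8.06 and 12.71 FPKM (-0.52, SE 0.15, edgeR adjusted p = 0.643). Both separated the groups, in opposite directions, which is 2 of 6 genes (33.3%) without overlap in log2 CPM. Among all genes tested this share was 12.7% (6.07% higher and 6.59% lower in *Pou4f3(Δ/+)*). *Tmem119* was -0.70 without *Pou4f3(Δ/+)* replicate 3 (edgeR adjusted p = 0.0332) and -0.21 without replicates 1 and 2. With the protein-coding transcripts only, *Siglech* was 0.22.

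Markers of other cells that the extract could hold were summed beside these results. The B cell list had 8 of 9 genes higher with an unadjusted p under 0.05 (88.9%, against 3.50% higher among all genes tested), among them *Cd79a*, *Cd79b*, *Ms4a1*, *Vpreb1*, *Vpreb3*, *Blnk* and *Pax5*, and its summed FPKM was 148.6 to 175.3 in wildtype and 181.6 to 340.1 in *Pou4f3(Δ/+)*. Without *Pou4f3(Δ/+)* replicates 1 and 2 the log2 fold change was -0.009 for *Cd79a*, -0.011 for *Ms4a1*, 0.09 for *Blnk*, 0.21 for *Pax5*, 0.26 for *Cd79b*, 0.61 for *Vpreb3* and 1.19 for *Vpreb1*. The erythroid sum was 11547 to 13419 FPKM in wildtype and 12459 to 17782 FPKM in *Pou4f3(Δ/+)*, with 2 of 7 genes (*Hbb-bt* and *Slc4a1*) higher at an unadjusted p under 0.05 (28.6%, against 3.50% higher among all genes tested). The log2 fold change of *Slc4a1* was 0.37 (SE 0.16), 0.23 without wildtype replicate 5 and 0.22 without *Pou4f3(Δ/+)* replicate 1. For neutrophils the sums were 14012 to 16329 and 14350 to 17129 FPKM, and *Mpo* had a log2 fold change of -0.40 (SE 0.17), -0.25 without wildtype replicate 3 and -0.26 without *Pou4f3(Δ/+)* replicate 1. T and NK cell genes summed to 48.3 to 58.0 FPKM in wildtype and 51.2 to 64.5 FPKM in *Pou4f3(Δ/+)*, dendritic cell genes to 13.7 to 18.1 and 18.2 to 21.8 FPKM, and mast cell genes to 19.7 to 22.6 and 17.8 to 26.0 FPKM, with *Tpsb2* listed at 0 in 1 sample. In these 3 lists 3 of 7, 1 of 5 and 1 of 3 genes tested had an unadjusted p under 0.05 (against 7.64% of all genes tested), namely *Cd3e* (1.55, SE 0.41), *Cd3d* (1.34, SE 0.57), *Klrb1c* (0.95, SE 0.39), *Cd209a* (0.72, SE 0.28) and *Fcer1a* (1.43, SE 0.52). Without *Pou4f3(Δ/+)* replicate 2 *Cd3d* was 0.75 and *Klrb1c* 0.48. Without replicates 1 and 2 *Cd3d* was -0.35, *Klrb1c* 0.002, *Cd3e* 0.46 and *Cd209a* 0.14. The hair cell list, with sums of 153.9 to 168.8 and 158.7 to 178.3 FPKM, had none of 10. With all 6 samples none of these lists held a gene that passed the adjusted test in edgeR, while the genes that DESeq2 called in them included *Cd79b*, *Pax5*, *Vpreb3*, *Cd3e* and *Hbb-bt*, all higher in *Pou4f3(Δ/+)*. The part of these cells in the levels of the members was not tested.

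The genes whose pattern over the 6 samples was most like the mean of the 10 members were *Dgkz*, *Tubb5*, *Cactin*, *Taf1d* and *Hnrnpab*, with root mean square differences of 0.0119 to 0.0209 in centred log2 CPM, among 16202 genes at least as variable. Of the members themselves *Adgre1* was the nearest to their mean (0.0642) and *Trem2* the farthest (0.5002). The mean varied by an SD of only 0.0631 over the samples.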

How the data were processed

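Cochlear RNA of 3 wildtype and 3 *Pou4f3(Δ/+)* samples was sequenced as paired reads on an Illumina HiSeq after poly(A) selection or rRNA removal (which one is not given per sample). For each sample the authors deposited expected counts per transcript, estimates without normalization that can be fractional, together with FPKM per transcript. The aligner and the counting program are not given in the sources used here, and the submitters' processing notes list mm8 without a role, and the study's methods name DESeq2 for its differential expression at an adjusted p of 0.05. The transcripts carry Ensembl identifiers, 99.5% of which were found in GENCODE M21, the source of positions and transcript types. The sum of counts per sample was 14295069 to 17696784, and intervals cover the spread between samples as well as counting error.

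Counts and FPKM were summed per gene symbol. Sums of counts were rounded and tested in edgeR 4.0.16 (filterByExpr with a minimum count of 10 and total of 15, TMM, quasi-likelihood test, two-sided, Benjamini-Hochberg over all genes tested, threshold 0.05), and log2 CPM used a prior count of 2. DESeq2 1.42.0, median ratio size factors, no filter, limma 3.58.1 on log2(FPKM + 0.5, 0.1 or 1) and fits without 1 sample each or without *Pou4f3(Δ/+)* replicates 1 and 2 were alternatives, and protein-coding transcripts only was added after the data were seen. The fits were tested on simulated data. Members and lists were chosen with earlier results of these data known. The text names all members, in each list the genes with an unadjusted p under 0.05 (or else the 2 with the highest FPKM), complement genes with a mean of at least 100 counts, the 5 genes most like the members, and transcripts with at least 10% of the FPKM of their gene. Some genes that this rule selects are not reported here.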

Additional observations from a re-analysis of the deposited data

How the results depend on the processing

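No member and no member transcript passed the adjusted test under any alternative run, and the smallest adjusted p of a member over the 14 alternatives was 0.0804. *Cx3cr1*, *Aif1* and *Cd68* kept the sign of their fold change in all 14, although with 1 sample left out *Cd68* ran from -0.33 to -0.14 and *Aif1* from -0.20 to -0.026. The other 7 changed sign in at least 1, always with samples left out. With 1 sample left out, the log2 fold change ran from -0.077 (without *Pou4f3(Δ/+)* replicate 1) to 0.038 (without wildtype replicate 3) for *Csf1r* and from -0.64 (without *Pou4f3(Δ/+)* replicate 3) to 0.056 (without wildtype replicate 3) for *Trem2*, which was also above 0 without *Pou4f3(Δ/+)* replicate 1 or 2. For *C1qa* it ran from -0.18 to 0.22, for *C1qb* from -0.17 to 0.29 and for *C1qc* from -0.15 to 0.18, the lowest without *Pou4f3(Δ/+)* replicate 2 and the highest without *Pou4f3(Δ/+)* replicate 3. Without *Pou4f3(Δ/+)* replicates 1 and 2, where the lone mutant sample is assumed to vary like the wildtype, it was -0.017 for *Adgre1*, -0.096 for *Mrc1*, -0.36 for *C1qa*, -0.36 for *C1qb*, -0.29 for *C1qc* and 0.48 for *Trem2*. The number of genes called among all tested was 0 in the report, 62 with DESeq2 (29 higher, 33 lower), 9 without the filter, 1 with limma and a pseudocount of 0.1, 6 without *Pou4f3(Δ/+)* replicates 1 and 2, and 0 to 193 with 1 sample left out, where the 193 came without *Pou4f3(Δ/+)* replicate 3 and the 3 without wildtype replicate 4. Transcripts called were 0, 133 with DESeq2, 1 without the filter and 0 to 3 with 1 sample left out (3 without wildtype replicate 3, 1 without *Pou4f3(Δ/+)* replicate 3). Complement genes called were 0, and 0 to 1 with 1 sample left out (*Cd55*, without *Pou4f3(Δ/+)* replicate 3). The cause of these differences was not tested. Other scalings moved the median log2 fold change of all genes by less than 0.01. No paired analysis was possible because the wildtype samples carry replicate numbers 3, 4 and 5 and the *Pou4f3(Δ/+)* samples 1, 2 and 3, so they share only number 3. With 3 samples per group, *Trem2* (SE 0.34) was the least precise member.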

Other observations

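Inflammatory and tissue-remodelling products of macrophages were read in further lists, and with all 6 samples and the filter on low counts no gene in them passed the adjusted test in edgeR. Of 11 cytokine and chemokine genes 8 were tested, 2 with a fold change above 0 and 6 below 0, and 2 (25%, against 7.64% of all genes tested) had an unadjusted p under 0.05, both lower in *Pou4f3(Δ/+)*. *Cxcl10*, a chemokine induced by interferon, was read at 34.70, 2.83 and 25.05 FPKM among the wildtype samples, against 2.25, 2.75 and 1.99 FPKM among the mutants. The level was high in wildtype replicates 3 and 5 and close to the mutant samples in wildtype replicate 4, and the log2 fold change was -3.19 (SE 0.72, edgeR adjusted p = 0.643). It passed the adjusted test without the filter on low counts (adjusted p = 0.0451) and without wildtype replicate 4 (-3.70, adjusted p = 0.00198). *Ccl3*, a chemokine of macrophages, was read at 0.98, 1.55 and 9.81 FPKM in wildtype and at 0.52, 1.18 and 1.60 FPKM in *Pou4f3(Δ/+)*, and its log2 fold change of -1.93 (SE 0.85) was -0.21 without wildtype replicate 5. *Cxcl1*, chosen after its values were seen and below the filter, was 8.81 FPKM in that sample and 0.24 to 0.54 FPKM in the others.

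Of 6 monocyte genes, *Ly6c2* (411.1 to 477.2 FPKM in wildtype, 268.3 to 429.9 in *Pou4f3(Δ/+)*, log2 fold change -0.36, SE 0.16) and *Plac8* (257.4 to 302.2 and 201.2 to 258.3 FPKM, -0.28, SE 0.11) had an unadjusted p under 0.05 (33.3%, against 7.64% of all genes tested), whereas the other 4 had a fold change above 0. Without *Pou4f3(Δ/+)* replicate 1 *Ly6c2* was -0.21 and *Plac8* -0.19, and without replicates 1 and 2 they were -0.06 and -0.15. None of 12 genes of activated phagocytes did, 10 of them with a fold change below 0. *Spp1*, which encodes osteopontin and is also made by bone cells, was read at 2496 to 2816 FPKM in wildtype and at 3286, 4116 and 2487 FPKM in *Pou4f3(Δ/+)* (0.32, SE 0.18), and *Ctsd*, a lysosomal protease, at 347.6 to 367.9 and 344.3 to 368.5 FPKM. Of 9 osteoclast genes, which mark the bone-resorbing relatives of macrophages in the bony capsule, 7 had a fold change below 0. *Tnfrsf11a*, the receptor RANK, was read at 5.78, 4.91 and 4.14 FPKM in wildtype and at 4.46, 3.02 and 2.61 FPKM in *Pou4f3(Δ/+)*. The FPKM of its wildtype and mutant samples overlapped, while in log2 CPM they did not (-0.52, SE 0.18, edgeR adjusted p = 0.643, and -0.88 without *Pou4f3(Δ/+)* replicates 1 and 2).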
